A study of Mus musculus with 7 samples.

Results

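The mammary gland of an adult mouse lies in a fat pad, and 10 genes that mark brown adipocytes were followed through whole glands, 3 from wild-type mice and 4 from PRA transgenics. The genes were Ucp1, Cidea, Elovl3, Ppargc1a, Dio2, Cpt1b, Prdm16, Zic1, Otop1 and Adrb3, taken as a fixed list by name. On the array, which names 37074 genes and transcripts, they have 13 of 56605 probes, with 2 probes for Ppargc1a, Otop1 and Adrb3 and 1 probe for each of the other 7 genes. All mice were nulliparous FVB females of 20 to 25 weeks killed in diestrus. PRA transgenic mice carry 2 transgenes, GAL-4 under the CMV promoter and the A form of the progesterone receptor (PR-A) under the UAS element to which GAL-4 binds. Wild-type littermates were the controls. RNA came from 1 abdominal gland per animal after the lymph nodes had been cut out, and the fat that floats on the homogenate was discarded during extraction. Each gland was labelled with Cy5 and hybridised on 1 array with Cy3-labelled Universal Mouse Reference RNA, a pool of RNA from mouse cell lines that was the same on all 7 arrays. All arrays lay on 1 slide, with wild-type glands in row 1 and PRA transgenic glands in row 2, so a difference between genotypes and one between the rows of the slide cannot be told apart.

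Brown adipocytes burn fat to make heat. Noradrenaline from sympathetic nerves binds beta-adrenergic receptors on the cell, cAMP rises, lipid droplets are broken down, and the fatty acids both feed the mitochondria and open UCP1, a channel that lets protons pass the inner membrane without making ATP. Cells with the same machinery, called beige adipocytes, can appear in depots that are mainly white, and the fat pad of the mammary gland is known to hold such cells. In whole glands, fewer cells of a type and less RNA per cell cannot be told apart.

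Levels are given as Cy5 log2 signal, scaled so that the 75th percentile was equal on all arrays, and the genotypes were compared on the log2 ratio of Cy5 to Cy3. Of 56605 probes, 34288 were bright enough in Cy5 (well above background throughout the arrays of 1 genotype or both) and were tested. Of the 13 probes 11 were tested, which covered 8 of the 10 genes. Cy5 was above background on 66.2%, 65.1% and 62.7% of probes in wild-type replicates 1, 2 and 3 and on 57.7%, 59.9%, 56.6% and 60.2% in PRA transgenic replicates 1 to 4. Values of single glands are given below in that same order. The brightest probe stands for a gene, and levels of different genes are not set against each other because each probe has its own response.

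No brown adipocyte gene differed between genotypes at an adjusted p under 0.05 (0 of 8, limma with Benjamini-Hochberg adjustment), in a comparison that called 0.0117% of all probes. At the less strict rule, P under 0.05 and a 1.5-fold change, 1 of 8 genes was called, Prdm16, which was lower in PRA transgenic glands, and 4.53% of all probes passed the same rule. In Cy5 alone none of the 8 was called by either rule, beside 0.0146% and 3.41% of all probes. Fitted log2 fold changes were positive for 4 genes and negative for 4, with a median of 0.04, beside 0.024 over all probes tested. Several of the genes varied widely among animals, and Ucp1 did so within each genotype (Cy5 SD 1.79 in wild-type and 2.30 in PRA transgenics). Over the 7 glands the Cy5 range of Ucp1, Cidea, Otop1, Dio2 and Cpt1b exceeded that of 90.8% to 99.6% of probes, and Ucp1 differed 32.4-fold between the highest and the lowest gland.

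**Figure D1:**
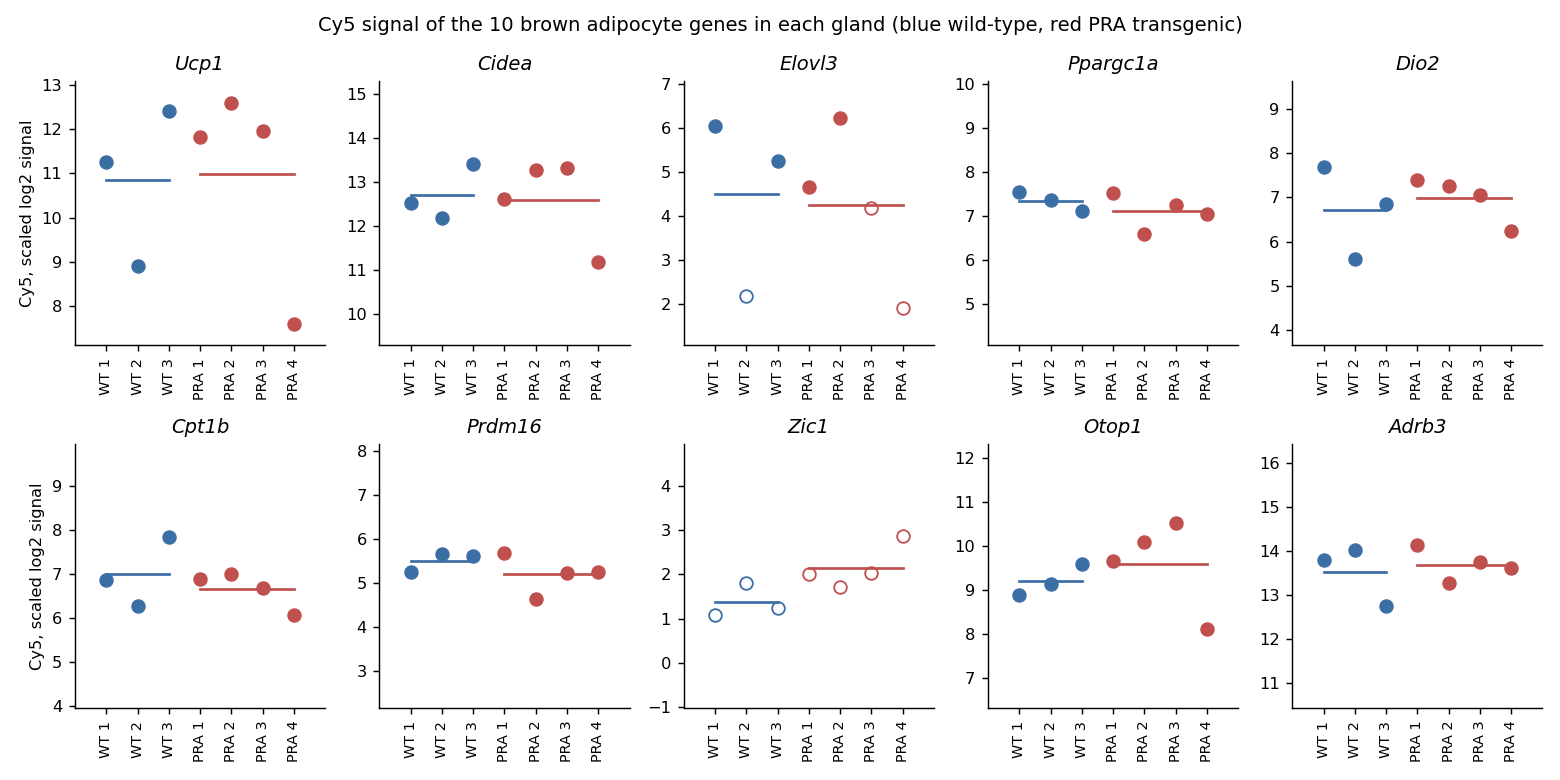
Cy5 log2 signal, scaled to the 75th percentile of each array, of the 10 genes in the 7 glands, with wild-type in blue and PRA transgenic in red. Filled points were well above background, open points were not, lines are genotype means, and every panel spans 6 log2 units. Ucp1 was lowest in PRA transgenic replicate 4 (7.59) and wild-type replicate 2 (8.91), while Adrb3 stayed between 12.74 and 14.12.

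Ucp1, the uncoupling protein itself, was well above background in all 7 glands. It is shown first because its level moved most among the genes tested. Its array probe covers chr8:85821788-85821847 of mm9 on the plus strand, and whether the position is exonic or in a UTR is not annotated in the files. Upstream of the Ucp1 start (RefSeq, GRCm38.p6, chr8:83290098-83290347, plus strand) capitals mark the short core of the cAMP response element, through which CREB-type factors act, and the AGGTCA core that nuclear receptors recognise.

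Ucp1 probe: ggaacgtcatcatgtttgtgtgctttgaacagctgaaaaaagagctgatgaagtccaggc

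Ucp1 upstream: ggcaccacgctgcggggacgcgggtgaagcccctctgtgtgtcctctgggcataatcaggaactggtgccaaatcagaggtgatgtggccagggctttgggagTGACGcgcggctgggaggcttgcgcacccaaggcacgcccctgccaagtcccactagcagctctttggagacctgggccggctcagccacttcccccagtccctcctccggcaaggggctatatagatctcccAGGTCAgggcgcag

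Wild-type glands had Ucp1 levels of 11.26, 8.91 and 12.42, and PRA transgenic glands had 11.82, 12.61, 11.96 and 7.59. Wild-type replicate 2 and PRA transgenic replicate 4 were low and the other 5 glands lay between 11.26 and 12.61, so that each genotype held 1 low gland and the genotypes overlapped. The range of 5.02 log2 units was larger than that of 99.6% of probes tested, for which the median range was 0.724. The Cy5 means were 10.86 ± 1.79 (SD, n = 3) for wild-type and 11.0 ± 2.30 (SD, n = 4) for PRA transgenics. This difference of 0.13 had a 95% interval from -2.97 to 3.23 (adjusted p = 0.99 from limma), which leaves room for a large change in either direction. Leaving out PRA transgenic replicate 4 gave 1.27 and leaving out wild-type replicate 2 gave -0.84.

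In the log2 ratio the same probe gave 5.57, 4.67 and 5.41 in wild-type and 5.76, 5.59, 5.77 and 4.90 in PRA transgenic glands. The 2 low glands were still the lowest, but the range shrank to 1.10, wider than that of 67.7% of probes. In precisely these 2 glands the Cy3 reference was not above background for this probe, so their ratios were taken against a signal that was only a bound. Between genotypes it differed by 0.29 (standard error 0.30, limma, adjusted p = 0.823), and by 0.016 without wild-type replicate 2. Most of the movement in Cy5 was absent from the ratio, since the Cy3 signal of this probe moved with it.

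Cidea, a protein of the lipid droplet surface that is abundant in brown fat, followed Ucp1 with a smaller amplitude. Its Cy5 levels were 12.54, 12.19 and 13.42 in wild-type and 12.61, 13.29, 13.33 and 11.18 in PRA transgenic glands, a 4.74-fold range that exceeded that of 95.0% of probes. The lowest glands were again PRA transgenic replicate 4 and wild-type replicate 2. Between genotypes the ratio differed by 0.36 (standard error 0.22, adjusted p = 0.691 from limma) and Cy5 alone by -0.11 (adjusted p = 0.976 from limma), so the sign depended on the channel. The 95% intervals, from -0.17 to 0.88 in the ratio and from -1.42 to 1.19 in Cy5 alone, both included 0.

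Elovl3 makes very long chain fatty acids and is induced in brown fat by cold. Its Cy5 levels were 6.05, 2.20 and 5.26 in wild-type and 4.66, 6.23, 4.19 and 1.92 in PRA transgenic glands. Only 2 wild-type and 2 PRA transgenic glands were above background, so the gene was not tested. The 3 glands below background were wild-type replicate 2 and PRA transgenic replicates 3 and 4, for which the values are only bounds.

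Dio2 is the deiodinase that makes active thyroid hormone inside brown adipocytes. It is shown with its upstream sequence because, of the 6 genes with an entry in the promoter table (Ucp1, Dio2, Ppargc1a, Otop1, Prdm16 and Zic1), it was the one with the whole cAMP response element, TGACGTCA, in capitals here (RefSeq, GRCm38.p6, chr12:90739039-90739288, minus strand).

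Dio2 upstream: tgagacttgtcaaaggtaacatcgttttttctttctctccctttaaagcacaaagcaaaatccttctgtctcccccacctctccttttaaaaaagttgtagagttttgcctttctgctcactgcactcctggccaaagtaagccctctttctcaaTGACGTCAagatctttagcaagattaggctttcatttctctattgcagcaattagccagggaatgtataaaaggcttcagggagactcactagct

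Searched on both strands over the 250 bases before the start, the whole element was found in 1.55% of 32851 promoters. Its shorter core TGACG, which lies within the whole element, was in 17.8% of promoters and in those of Ucp1, Dio2 and Ppargc1a. The nuclear receptor core AGGTCA was in 14.0% of promoters and in that of Ucp1. Neither the DR1 element, which is AGGTCA repeated with 1 base between (0.0335% of promoters), TCAAGGTCA (estrogen-related receptor, 0.387%) nor CCCNNGGG (EBF, 11.8%) occurred in the 6 windows. A match is a match of letters, and no binding was measured.

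In Cy5 the Dio2 levels were 7.69, 5.60 and 6.85 in wild-type and 7.40, 7.26, 7.05 and 6.23 in PRA transgenic glands. The lowest 2 glands were those in which Ucp1 was lowest, in the opposite order. The ratio difference of -0.16 had a standard error of 0.85 (limma, adjusted p = 0.979), and the reference was above background for this probe on only 2 arrays. Cy5 alone gave 0.27 (95% interval from -0.90 to 1.44, adjusted p = 0.919 from limma).

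Cpt1b carries fatty acids into mitochondria in muscle and brown fat. The transcripts listed for its probe belong to Cpt1b and also to the locus Gm44502, so the signal may be shared. Levels were 6.87, 6.29 and 7.85 in wild-type and 6.89, 7.0, 6.69 and 6.08 in PRA transgenic glands. PRA transgenic replicate 4 and wild-type replicate 2 were lowest and wild-type replicate 3 was highest. The ratio differed by -0.28 (standard error 0.44, limma, adjusted p = 0.898), and by 0.19 without wild-type replicate 3.

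Otop1, a proton channel with strong expression in brown fat, was the member with the highest fitted rise. Its brighter probe had Cy5 levels of 8.89, 9.13 and 9.59 in wild-type and 9.65, 10.08, 10.52 and 8.11 in PRA transgenic glands. All wild-type glands lay below PRA transgenic replicates 1, 2 and 3 and above replicate 4. The ratio differed by 0.71 (standard error 0.45, limma, adjusted p = 0.697). Without PRA transgenic replicate 4 it was 1.11 (adjusted p = 0.279 from limma), which then passed the rule of P under 0.05 and 1.5-fold. The reference was above background on 1 array for the brighter probe, so its ratio was taken largely against bounds. In Cy5 alone that probe differed by 0.39 (adjusted p = 0.884 from limma), and by 0.078 to 0.88 with single arrays left out. The second probe differed by -0.04 in the ratio and 0.53 in Cy5 alone. This second Otop1 probe (mm9, chr5:38694026-38694085, plus strand) and the second probes of Adrb3 (chr8:28337864-28337923, minus strand) and Ppargc1a (chr5:51849419-51849478, minus strand) are given here because each gene was read at a pair of separate places.

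Otop1 second probe: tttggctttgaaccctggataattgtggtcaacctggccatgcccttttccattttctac

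Adrb3 second probe: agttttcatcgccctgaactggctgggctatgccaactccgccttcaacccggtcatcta

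Ppargc1a second probe: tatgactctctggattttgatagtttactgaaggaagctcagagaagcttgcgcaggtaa

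Adrb3 is the beta-adrenergic receptor of rodent adipocytes, white and brown alike. It did not follow Ucp1. Its Cy5 levels were 13.80, 14.02 and 12.74 in wild-type and 14.12, 13.27, 13.74 and 13.61 in PRA transgenic glands. Wild-type replicate 2, low for Ucp1, was the second highest gland, and wild-type replicate 3, high for Ucp1, was the lowest. The ratio differed by 0.22 between genotypes (95% interval from -0.15 to 0.58, adjusted p = 0.731 from limma), and by 0.062 without wild-type replicate 3. The second probe differed by 0.14 and placed wild-type replicate 3 lowest and PRA transgenic replicate 1 highest as the first did. The probes disagreed on wild-type replicate 2, which on the second was at the median of the 7 glands (10.09).

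Ppargc1a, a coactivator that switches on mitochondrial genes, varied less than Ucp1. Its levels were 7.55, 7.37 and 7.12 in wild-type and 7.54, 6.60, 7.26 and 7.05 in PRA transgenic glands. The range of 0.95 was wider than that of 66.6% of probes, and PRA transgenic replicate 2, highest for Ucp1, was lowest here. The ratio differed by -0.14 (standard error 0.26, limma, adjusted p = 0.918), and the second probe by 0.07.

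Prdm16, a transcription factor that directs precursors towards the brown fate, was the member called at the less strict rule. Ratios of 3.23, 3.23 and 3.58 in wild-type all lay above those of 2.83, 2.20, 2.56 and 2.81 in PRA transgenic glands. Among all probes 4.53% were likewise separated with PRA transgenic glands lower. PRA transgenic glands were lower by a log2 fold change of -0.75 (standard error 0.19, 95% interval from -1.20 to -0.29, limma, adjusted p = 0.405), and it was below 0 with each array left out, from -0.82 to -0.61. With another background correction (normexp) and loess it was -0.15 (adjusted p = 0.776 from limma). In Cy5 alone the levels were 5.26, 5.65 and 5.62 in wild-type and 5.69, 4.64, 5.22 and 5.26 in PRA transgenic glands, and the genotypes overlapped. There the difference was -0.31 (standard error 0.25, adjusted p = 0.767 from limma). On none of the 7 arrays was the reference above background for this probe, so the ratio was taken against a signal that was only a bound.

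Zic1, a transcription factor that marks the brown fat of the back and is low in beige cells, was not above background in any of the 7 glands, nor was its reference signal. Its Cy5 values of 1.07 to 2.87 are bounds and the gene was not tested. The list is therefore named for brown adipocytes with one of its markers below detection, and Ucp1, Cidea and Adrb3 well above background in all glands.

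**Figure D2:**
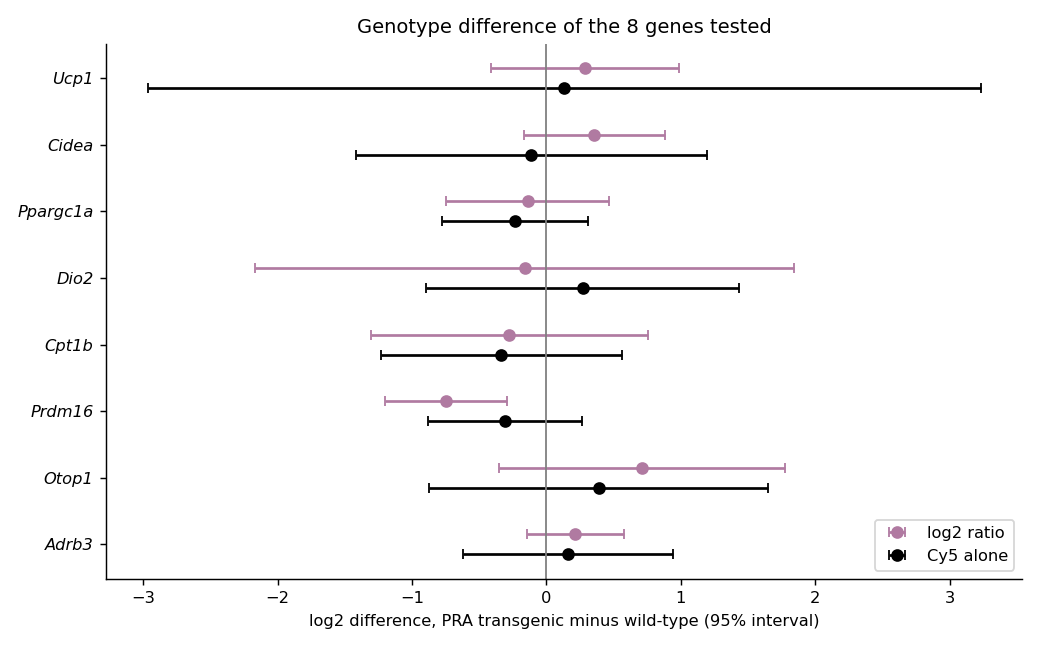
Difference between PRA transgenic and wild-type glands (log2, horizontal axis) for the 8 genes tested, from the log2 ratio and from Cy5 alone, with points for estimates of limma and bars for 95% intervals. The Ucp1 interval in Cy5 alone runs from -2.97 to 3.23, and the Prdm16 interval lies below 0 in the ratio but not in Cy5 alone.

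Although the reference RNA was the same on every array, its signal was not level across them. The median range of Cy3, which was not scaled, was 0.546, beside 0.724 for scaled Cy5. The 75th percentile of Cy3 itself ran from 8.04 on PRA transgenic replicate 2 to 8.46 on wild-type replicate 2. The Cy3 range thus includes differences in the brightness of whole arrays. For Ucp1 the Cy3 values were 5.80, 4.51 and 6.99 on wild-type and 6.0, 6.88, 6.06 and 2.67 on PRA transgenic arrays, a range of 4.32 that exceeded 99.7% of probes. They were lowest on the arrays where Cy5 was lowest, wild-type replicate 2 and PRA transgenic replicate 4, and there Cy3 was not above background, so that the range and the slope below rest partly on bounds. Per unit of Cy5, here also unscaled, the Cy3 signal changed by 0.81 for Ucp1, 0.78 for Cidea and 0.76 for Adrb3. For Cpt1b it changed by -0.08 and for Ppargc1a by 0.28. The slope did not follow the mean ratio throughout, being 0.17 for the brighter Otop1 probe and 0.80 and 0.82 for the second probes of Ppargc1a and Otop1, for which Cy3 was above background on 1, 3 and 1 arrays. Among probes with a Cy5 range over 1.5, the median slope was 0.153 for 1968 probes with a mean log2 ratio of 0 or less, 0.213 for ratios from 0 to 2, 0.172 from 2 to 4, 0.41 from 4 to 5, 0.353 from 5 to 6, where Ucp1 lies, and 0.541 for 65 probes with a ratio over 6, so it did not rise steadily. For Ucp1, Cidea and Adrb3 the range of the ratio (1.10, 0.94 and 0.60) was narrower than that of Cy5 (5.02, 2.24 and 1.38). The cause was not tested.

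**Figure D3:**
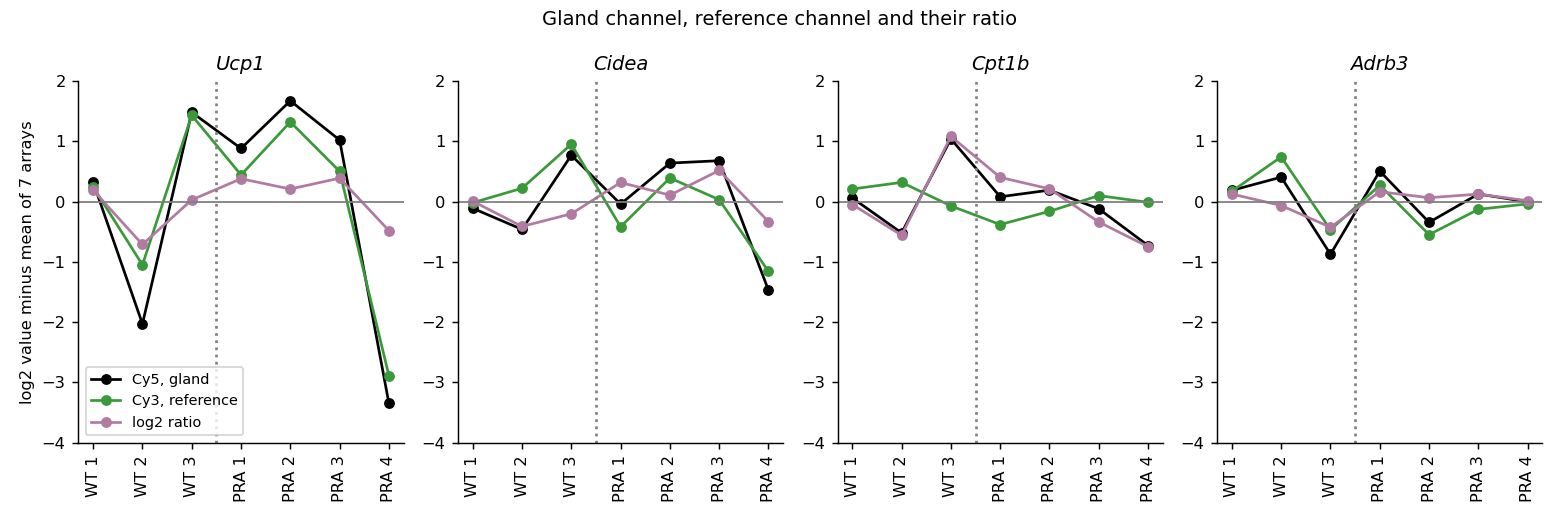
Cy5 of the gland, Cy3 of the reference and their log2 ratio, each minus its mean over the 7 arrays (log2 units, vertical axis), for Ucp1, Cidea, Cpt1b and Adrb3 in each array. Cy5 was scaled, Cy3 was not, and slopes were taken on unscaled Cy5. Cy3 moved with Cy5 for Ucp1 (slope 0.81), Cidea and Adrb3 and did not for Cpt1b (slope -0.08).

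Which other genes rose and fell with Ucp1 was asked by a measure of distance, the root mean square difference between centred Cy5 profiles over the 7 glands, for 22452 genes. A gene with a level profile would have a distance of 1.78. Nearest was Elovl6 (0.588), a fatty acid elongase, and Acly (0.833), the enzyme that makes cytosolic acetyl-CoA for fatty acid synthesis, was at rank 3. Elovl6 had Cy5 levels of 13.21, 11.21 and 13.09 in wild-type and 13.52, 14.04, 14.48 and 9.86 in PRA transgenic glands. The same pair of glands was low, which nearness to Ucp1 on this measure largely requires. Also among the nearest 8 were Iglv1 (0.842), an immunoglobulin light chain segment of a family whose members share sequence, the DNA helicase Recql4 (0.903) and 4 probes without a gene symbol. On the log2 ratio the likeness was lost, with Elovl6 at rank 22140 and Acly at 22169 of 22452, among the genes farthest from Ucp1. The measure counts amplitude as well as shape, and the Ucp1 ratio ranged over 1.10. A gene with a wide ratio range is therefore far from it whatever the shape of its profile. The measure is a description over 7 glands that share the same arrays, and it carries no test.

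Of the 7 other members tested, 4 were among the nearest 1% of genes, with Cidea at rank 37, Otop1 at 84, Dio2 at 182 and Cpt1b at 223. Ppargc1a was at 14531, Prdm16 at 16651 and Adrb3 at 19794, and all 3 were farther from Ucp1 than a level profile. That is not particular to them, since only 44.6% of all genes were nearer than a level profile. On the log2 ratio, in which the range of Ucp1 was 1.10, 1 member (Cidea, rank 36) was among the nearest 1%.

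**Figure D4:**
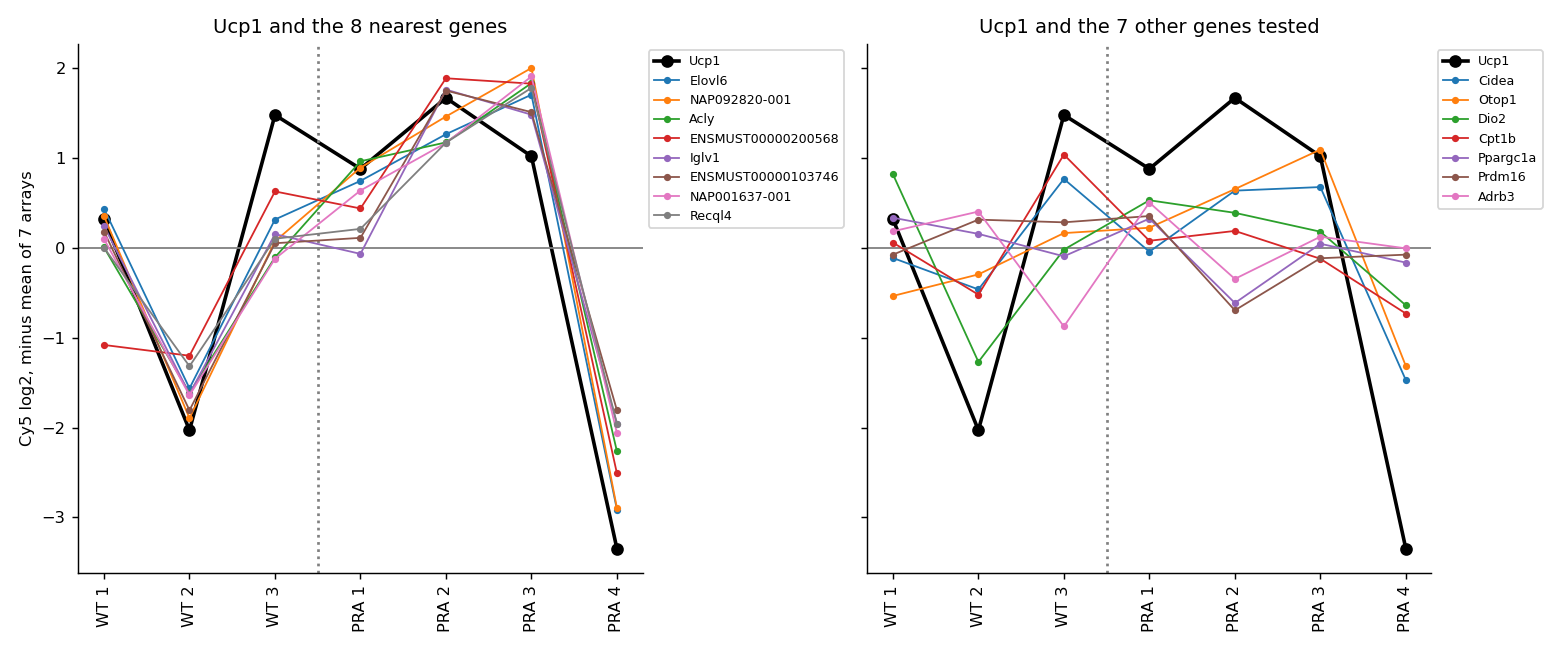
Cy5 of Ucp1 (black) with the 8 genes nearest to it (left) and with the 7 other members tested (right), each minus its mean over the 7 glands (log2, vertical axis). All 8 nearest genes were low in wild-type replicate 2 and PRA transgenic replicate 4, which their choice by nearness largely requires. Cidea and Otop1 had a smaller amplitude than Ucp1, and Adrb3 was lowest in wild-type replicate 3.

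A list of 30 further genes of the brown fat program was followed in the same way, 29 of them tested. In the genotype comparison 1 was called higher and 1 lower at P under 0.05 and 1.5-fold, beside 1.94% and 2.59% of all probes, and none had an adjusted p under 0.05. The one called higher was Kcnk3, a potassium channel of brown fat, with Cy5 levels of 8.62, 9.01 and 8.98 in wild-type and 9.72, 10.11, 10.57 and 8.81 in PRA transgenic glands. Its log2 fold change was 0.91 (adjusted p = 0.382 from limma), and PRA transgenic replicate 4 was the gland that overlapped wild-type in Cy5. Slc27a2, an acyl-CoA synthetase and fatty acid transporter, was called lower (adjusted p = 0.362 from limma). It passed the filter through the wild-type glands, with Cy5 above background in 3 of 4 PRA transgenic glands and the reference above it on none of the arrays, so the fold is not given. The remaining extremes were Acot11 (1.00), a thioesterase induced by cold, and Fabp3 (-1.47), a fatty acid binding protein of muscle and brown fat, with adjusted p of 0.715 and 0.856 from limma. Fabp3 levels ranged over 8.11 log2 units, from 6.29 in PRA transgenic replicate 3 to 14.4 in wild-type replicate 3. The median log2 fold change of the list was 0.063.

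The pair of glands that was low for Ucp1 was also low for part of this list. Both were the lowest 2 of 7 in Cy5 for 9 of 29 genes (31.0%), against 7.82% of all 34288 probes. These 9 were Cox8b, Cox7a1, Plin5, Acot11, Pank1, Letmd1, Esrra, Acadvl and Ehhadh. Plin5 coats lipid droplets, Acadvl and Ehhadh act in fatty acid oxidation, and Esrra is a nuclear receptor that acts on mitochondrial genes. Cox8b, a cytochrome oxidase subunit of brown fat and striated muscle, was at 12.75 and 12.78 in those 2 glands, and the other 5 ranged from 13.16 to 13.74. Besides Ucp1, the pair was lowest for 3 of the 7 other members tested, Cidea, Dio2 and Cpt1b. The pair was chosen from the values of Ucp1, and no test was made on it.

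Upstream of these genes stands beta-adrenergic signalling, for which 17 genes of receptors, cAMP signalling and lipolysis were all tested. The glands that were low for Ucp1 were the lowest 2 for none of them, beside 7.82% of all probes. Adcy3, an adenylyl cyclase, was called higher (log2 fold change 0.93, adjusted p = 0.33 from limma), and the receptor Adrb1 was called lower (-0.93, adjusted p = 0.405 from limma), that is 1 gene in each direction beside 1.94% and 2.59% of all probes. The reference was above background on 1 array for Adcy3 and on none for Adrb1, so both ratios were taken largely against bounds. In Cy5 alone the differences were 0.31 and -0.31, and neither gene passed the rule. Lipe, the hormone-sensitive lipase, had 0.42 (adjusted p = 0.493 from limma). The median of the list was 0.016.

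Among 9 genes used to mark beige adipocytes, 8 were tested and 1 was called lower, beside 2.59% of all probes. This was Tbx1, a transcription factor also found in muscle precursors. Its log2 fold change was -1.51 (adjusted p = 0.466 from limma), with Cy5 levels of 8.30, 5.78 and 7.40 in wild-type and 5.80, 5.09, 5.85 and 5.63 in PRA transgenic glands. Wild-type replicates 1 and 3 were high, and wild-type replicate 2 lay among the PRA transgenic glands. Sp100 had -0.25, and the highest were Cited1 with 0.43 and Klhl13 with 0.37, although the reference was above background on 1 array for Klhl13, which had 0.07 in Cy5 alone. Their adjusted p were 0.843, 0.621 and 0.799 from limma. Tmem26 was not tested. The median of the list was 0.20, and 5 of the 8 genes had positive values.

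White adipocyte genes were followed as a measure of the fat in the gland. Of 15 genes tested, none was called, 14 of the 15 fitted ratios were positive (median 0.169) and 7 were positive in Cy5 alone (median -0.012). The extremes were Slc7a10 (0.46) and Agt (0.39) against Cd36 (-0.15) and Nnat (0.02), with adjusted p of 0.493, 0.697, 0.896 and 0.986 from limma. Adipoq, the adiponectin gene, had Cy5 levels of 16.14, 16.64 and 15.88 in wild-type and 16.78, 15.57, 15.96 and 16.51 in PRA transgenic glands. The glands low for Ucp1 were the second and the third highest for Adipoq. Other genes of the list differed from Adipoq in this. The same pair was the lowest 2 in Cy5 for 1 of the 15 genes, Gpd1 (6.67%, beside 7.82% of all probes). The mean level of the list, centred over the glands, was -0.09, 0.40 and -0.23 in wild-type and 0.46, -0.48, -0.08 and 0.02 in PRA transgenic glands, and its summed Cy5 signal lay between 668440 and 1194431. Wild-type replicate 2 and PRA transgenic replicate 1 were highest for this list and also for the brighter probe of Adrb3. On the second Adrb3 probe wild-type replicate 2 was at the median (10.09). Fabp4, a fatty acid binding protein, was its brightest probe.

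Skeletal muscle genes were checked because muscle also expresses Cpt1b, Ppargc1a and several genes of the wider program, including Fabp3, Cox7a1, Cox8b and Ucp3. Of 19 genes, 18 were tested and none was called. The centred mean of the list was 1.04, -1.52 and 2.83 in wild-type and -1.61, -1.60, -1.63 and 2.48 in PRA transgenic glands, and the summed signal ran from 4575 in wild-type replicate 2 to 130546 in wild-type replicate 3. Wild-type replicates 1 and 3 and PRA transgenic replicate 4 were thus high in muscle genes. The muscle creatine kinase gene Ckm was above background in those 3 glands and in no other. In PRA transgenic replicate 4, high in muscle genes, Ucp1 and Cpt1b were lowest. In wild-type replicate 3, the highest in muscle genes, Cpt1b, Fabp3 and Cox7a1 (12.29, the next gland at 11.16) were highest. Ucp3 was highest in PRA transgenic replicate 4 (11.22) and next in wild-type replicate 3 (11.01). The part of muscle in these values was not tested. Myl1, a myosin light chain, was the brightest of the muscle probes. Myh1, Casq1 and Tcap were above background in 1 of 4 PRA transgenic glands and Actn3 in 3 of 4, so their values there are partly bounds. With these included the list's median log2 fold change was -1.11, and its extremes were Mylpf (-2.29), Actn3 (-2.19), Myh7 (0.84) and Myh4 (0.25), with adjusted p from 0.748 to 0.772 from limma. For Myh4 the probe that passed the filter on dim signals ranged over only 1.02 log2 units, whereas another probe of the gene, which did not pass, read 12.29, 1.50 and 14.91 in wild-type and 2.09, 3.24, 4.94 and 12.62 in PRA transgenic glands, high in the same 3 glands as the list, so the probes of Myh4 disagree.

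**Figure D5:**
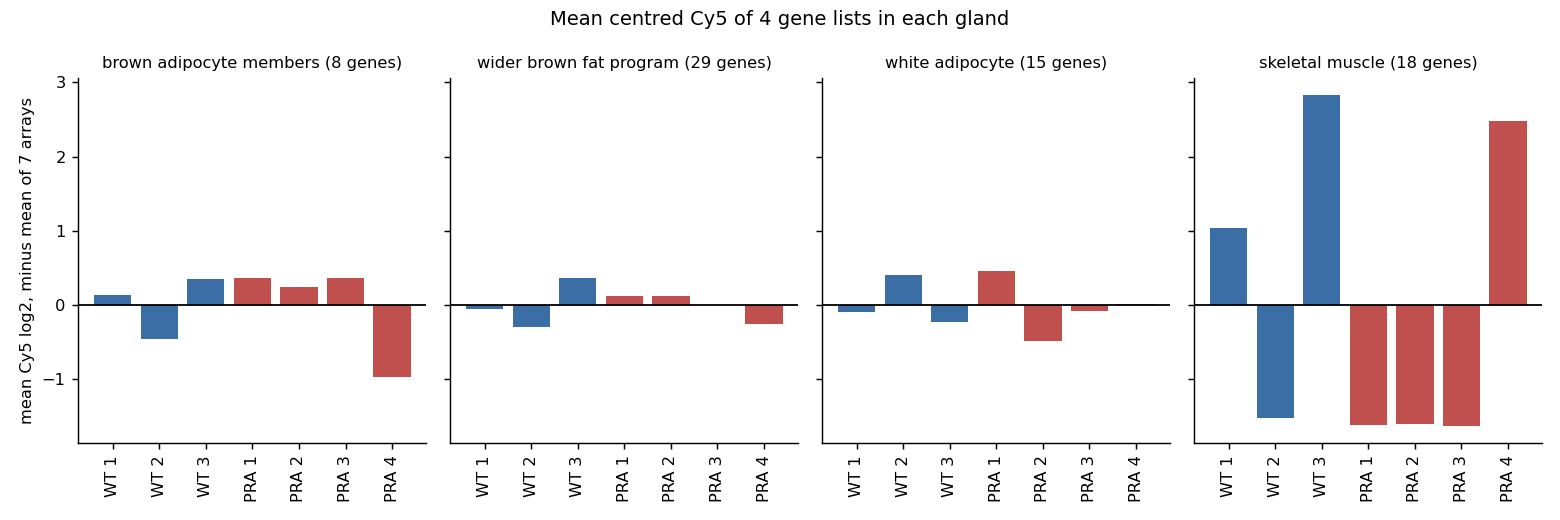
Mean Cy5 of 4 gene lists in each gland, after centring every gene on its mean over the 7 arrays (log2 units, vertical axis, bars), with wild-type in blue and PRA transgenic in red. The brown adipocyte members were lowest in PRA transgenic replicate 4 (-0.97) and wild-type replicate 2 (-0.46), while muscle genes were high in wild-type replicates 1 and 3 and PRA transgenic replicate 4.

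Over the 8 members tested the centred mean was 0.13, -0.46 and 0.35 in wild-type and 0.36, 0.24, 0.36 and -0.97 in PRA transgenic glands. Markers of 6 other cell types were examined in the same glands, and their calls in the ratio stand beside 1.94% of all probes called higher and 2.59% called lower. Of 12 luminal genes none was called, and the epithelial keratin Krt18 lay between 14.56 and 15.64. The extremes of that list were Lalba (-0.96), Wap (-0.67), Csn2 (0.63) and Elf5 (0.39), and Csn3, a casein, was its brightest probe. The reference was above background on 3 arrays for Wap, whose Cy5 was above it in 3 of 4 PRA transgenic glands, on 2 for Csn2 and on 5 for Elf5, so these ratios rest partly on bounds, and in Cy5 alone Csn2 had -0.36 and Elf5 0.04. Of 7 basal genes none was called in the ratio. Krt17 was called higher in Cy5 alone (0.63, adjusted p = 0.463 from limma), where 485 of 34288 probes were called higher. Krt14 lay between 11.00 and 12.20 in Cy5, and Acta2 was the brightest of these genes. Their ratio extremes ran from -0.11 (Trp63) and 0.05 (Krt14) to 0.32 (Krt17) and 0.33 (Acta2). Of 7 immune genes tested, Cd8a was called lower (adjusted p = 0.462 from limma), but it was above background in 3 wild-type glands and 1 PRA transgenic gland, so the fold is not given. In that list Lyz2 (-0.24) was brightest, Cd74 had -0.02 and Ptprc had 0.11. Ptprc, the leukocyte common antigen, lay between 10.11 and 10.55 in Cy5. Of 5 endothelial genes none was called, with Cdh5 at -0.55, Pecam1 at 0.02, Kdr, the brightest, at 0.18 and Tie1 at 0.47, and Pecam1 lay between 7.88 and 8.70. The reference was above background on none of the arrays for Cdh5 and on 1 each for Kdr and Tie1, which in Cy5 alone had -0.23, 0.27 and 0.07. Of 5 skin genes tested, Mc5r was called higher (0.98 against a reference above background on none of the arrays, and 1.62 in Cy5 alone) and Lor lower, Lor being above background in none of the PRA transgenic glands, Krt10 had 0.20, and Krt1 had -0.10 against a reference likewise not above background and 0.04 in Cy5 alone. In Cy5 Krt10 lay between 8.60 and 8.94, and Scd3 was brightest. Of 5 Schwann cell genes none was called, with Mbp at -0.21, Sox10 at 0.13 and Pmp22, the brightest, at 0.32. No gene of these 6 lists had an adjusted p under 0.05 from limma.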

How the data were processed

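The authors deposited the scanner output of each array, made per the labels with Agilent Feature Extraction 12.0 (the file headers state 11.5.1.1), whose processed Cy5 and Cy3 intensity values had been background-subtracted and dye-normalized by that software, with surrogates for dim signals. A second table that the authors deposited, of log2 ratios for the whole series, correlated at 0.9999 or more with the ratios computed here after each probe was centred on its median over the 7 arrays. Its columns were used as an alternative.

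Control and outlier spots were dropped, log2(Cy5/Cy3) was taken from the processed signals and averaged per probe, and 34288 probes were kept whose Cy5 was well above background in every wild-type array or in every PRA transgenic array. No spot was saturated. The genotypes were compared in R 4.3.3 by limma 3.58.1 (lmFit, eBayes), and p-values were adjusted by Benjamini-Hochberg over all probes kept. Cy5 alone was log2 processed signal minus the 75th percentile of each array, with the mean of those percentiles added back. The steps were tested on simulated data. The labels number the animals within each genotype, 1 array per animal, and precision is limited by having 3 and 4 arrays. Neither the replicate numbers of the labels nor the slide columns paired the samples. The file of wild-type replicate 3 carries another number, and the labels were followed.

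Genes were named by accession or symbol through a RefSeq table of GRCm38.p6, used for names and promoter sequences, and the mm9 positions of probes were read from the scanner files. For genes with several probes the brightest kept probe in Cy5 stands for the gene. The members, marker lists and motifs were chosen with earlier results of these data known. Named were all members, of each other list the 2 highest and 2 lowest log2 fold changes, defining and brightest markers, and the 8 genes nearest to Ucp1, with other names chosen after their values were seen (the genes lowest in the same pair of glands as Ucp1, and genes among the 30 nearest to it). A few genes that this rule names are not reported here. The alternatives were another background correction with loess, the series table, other filters, quantile normalization, Cy5 alone, array weights, an intensity trend in eBayes, a replicate block, the methods' t-test, each array left out, and the median over probes. With 1 slide there was no slide block to fit.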

Additional observations from a re-analysis of the deposited data

Results flagged for a closer look

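The Ucp1 level of PRA transgenic replicate 4 stood apart from the other 3 PRA transgenic glands in Cy5 alone, 7.59 against 11.82 to 12.61, and the gap took up 0.843 of the range of the 4 glands, above the critical value of 0.829. Among 20 groups of 4 arrays examined (the Cy5 level and the log2 ratio of each of the 10 genes) this was the 1 so marked, and chance alone would mark about 1. In the log2 ratio the same gland was the lowest of the 4 at 4.90, against a Cy3 signal that was not above background there.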

How the results depend on the processing

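No member had an adjusted p under 0.05 under any alternative run. The count of members at P under 0.05 and 1.5-fold was 1 (Prdm16) as reported, 0 with normexp and loess, with both channels above background on all arrays (where Prdm16 was not tested), in Cy5 alone and in Cy5 alone with quantile normalization, and 2 (Prdm16 and Otop1) with the replicate number as a block, a fit to which PRA transgenic replicate 4 adds nothing, having no wild-type partner. Leaving that gland out gave the same 2. Leaving out single arrays gave 1 to 2 members, and 0 to 1 in Cy5 alone, a setting added after seeing the data, where the 1 was Otop1 without PRA transgenic replicate 4. In that fit 1975 of 34288 probes passed the same rule, against 1170 in Cy5 alone with all arrays.

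Probes at an adjusted p under 0.05 numbered 4, and 15 without a filter, 1 by the methods' t-test, 11 with array weights, 0 with the block, and 1 to 12 with single arrays left out. At P under 0.01 and 2-fold the count was 273, and 36 with normexp and loess, 730 without a filter, 47 with the stricter filter, 181 in Cy5 alone, 130 by the methods' t-test, 455 with the block and 225 to 449 with arrays left out. At P under 0.05 and 1.5-fold it was 1552, and 328 with normexp and loess, 3367 without a filter, 468 with the stricter filter, 996 by the methods' t-test, 2444 with the block and 1382 to 2334 with arrays left out. Of the 7 fits with an array left out, that without PRA transgenic replicate 4 gave the highest counts, 12, 449 and 2334.

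The sign turned for Cidea (-0.11 in Cy5 alone and -0.12 with quantile normalization of Cy5) and for Dio2 (0.27 and 0.23). With arrays left out, the ratio differences ran from -0.78 to 0.71 for Dio2, from -0.64 to 0.19 for Cpt1b and from -0.33 to 0.043 for Ppargc1a. In Cy5 alone they ran from -0.84 to 1.27 for Ucp1, -0.29 to 0.76 for Dio2, -0.38 to 0.36 for Cidea, -0.69 to 0.086 for Cpt1b and -0.23 to 0.41 for Adrb3. The range over 7 arrays was 1.10 for Ucp1, 0.94 for Cidea, 2.99 for Dio2 and 0.60 for Adrb3 in the ratio, and 1.42 for Prdm16 in unscaled Cy5. The causes were not tested.

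Same-numbered glands of the genotypes had correlations of 0.09, -0.26 and 0.00 between their deviations, so the samples share only a number, and not every gland correlated best with its own number. Glands in the same slide column, which pairs wild-type replicate 3 with PRA transgenic replicate 4, had 0.12, -0.32 and -0.08, a check added after seeing the data. With 3 and 4 arrays and 1 slide, differences as small as those of most members are within the intervals given.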

Other observations

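Among the 30 genes nearest to Ucp1 in Cy5, of 22452, a few were picked out after their values were seen, and no enrichment was tested. Me1, the malic enzyme that supplies NADPH, was at rank 10, Acaca, the acetyl-CoA carboxylase, at 16, the transketolase Tkt at 20, the acetyl-CoA synthetase Acss2 at 24, Thrsp, a lipogenic regulator, at 26 and the citrate carrier Slc25a1 at 29. The 30 also held genes of other kinds, such as Ntsr2, Ncan, Defb1 and Slc4a1. On the log2 ratio Thrsp was at rank 81, whereas Me1 was at 21283, Acaca at 10582, Tkt at 21766, Acss2 at 19575 and Slc25a1 at 18719. Acly had Cy5 levels of 15.21, 13.59 and 15.10 in wild-type and 16.17, 16.38, 17.04 and 12.94 in PRA transgenic glands. Thrsp had 16.07, 14.20 and 15.44 in wild-type and 16.83, 16.46, 16.77 and 14.20 in PRA transgenic glands. Both genes were lowest in the glands that were low for Ucp1, which their choice by nearness to Ucp1 largely requires. None of the genes named here for their ranks differed between genotypes at an adjusted p under 0.05 from limma (Acly 0.803, Thrsp 0.679).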
